A study of Schizosaccharomyces pombe with 6 samples.

Results

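The arms of chromosome III between the ends and the centromere were examined for RPA, the heterotrimer that coats single-stranded DNA, in fission yeast (Schizosaccharomyces pombe) treated with hydroxyurea (HU). The members were the probes of the tiling array on chromosome III whose midpoint lay from 200001 to 1019855 on the left arm or from 1219857 to 2250000 on the right arm. They numbered 6605 of the 42707 probes of the design, 2902 on the left arm and 3703 on the right arm. The ends of the chromosome, which adjoin the ribosomal DNA, and the centromere with its flanks lay outside these limits.

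Each of 6 arrays set chromatin immunoprecipitated for Ssb1, the large RPA subunit, against its own input DNA in 2 colours. The first group had 3 arrays of a cdc25-22 rad3∆ strain, and the second had 3 arrays of a cdc25-22 strain, called WT after its label although it carries that mutation too. Both strains share the temperature-sensitive cdc25-22 allele, growth at 25 °C in EMM6S, 4 h at 36.5 °C, return to 25 °C and 6 mM HU, and all titles carry the number 60 without a unit. For rad3∆ array 3 the input is labelled cdc25-23, and the array was kept. The molecule is labelled total RNA and the extraction protocol names RNA, so that the reading as IP and input DNA rests on the channel names and the series title. Nothing says whether the arrays of a strain came from separate cultures, and p-values measure only the spread between these arrays.

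HU lowers the supply of deoxyribonucleotides, and replication forks then slow and expose single-stranded DNA, which RPA binds. Rad3 is the ATR family kinase of fission yeast, recruited to RPA-coated DNA, and it holds back late origins and protects stalled forks. Origins in this yeast have no strict consensus and tend to lie in intergenic DNA rich in A and T. Chromosome III is the shortest of the 3 chromosomes and carries the ribosomal DNA arrays at both ends.

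The arms read above the interiors of chromosomes I and II in both strains, with peaks over 34.6% of their length, and the mean levels of the left and right arm differed by less than the spread between arrays. The sequence under the peaks is shown first, because the tops of the highest peaks were rich in A and T. They held 63.9% to 72.9% A+T, against 63.5% in the average arm window. The lowest windows of the depleted stretches overlapped that range, at 61.1% to 67.6%. Over both arms, enriched windows averaged 63.98% A+T and depleted ones 63.64%. Enriched windows were the richer ones on the left arm (64.15% against 62.33%) and depleted windows on the right arm (64.14% against 63.85%). The A+T ranges of peak tops and low windows thus overlapped, and whether A+T content sets them apart was not tested. For the 2 highest peak tops of each arm with at least 200 unbroken bases outside every annotated gene, that gene-free DNA is given. It is shown as up to 250 bases of the plus strand of RefSeq ASM294v3. Array positions on this chromosome fitted that build within 4 bases, judged indirectly from probe length and local A+T content. The left arm stretches lie between ght6 and SPCC1235.17 (chrIII:207001-207224) and between gnr1 and tyw1 (chrIII:767544-767788). The right arm stretches lie downstream of tef3 (chrIII:1689173-1689422) and on the 3′ side of set11 (chrIII:1844252-1844501). A stretch of bir1 coding sequence in a low window (chrIII:547376-547625, minus strand) is shown for contrast. Capitals mark runs of at least 6 A or 6 T.
ght6 to SPCC1235.17, peak: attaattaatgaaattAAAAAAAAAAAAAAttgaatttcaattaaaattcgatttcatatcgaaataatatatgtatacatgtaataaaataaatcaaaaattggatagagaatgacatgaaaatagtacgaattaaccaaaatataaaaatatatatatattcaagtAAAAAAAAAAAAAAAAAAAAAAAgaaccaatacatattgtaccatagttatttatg
gnr1 to tyw1, peak: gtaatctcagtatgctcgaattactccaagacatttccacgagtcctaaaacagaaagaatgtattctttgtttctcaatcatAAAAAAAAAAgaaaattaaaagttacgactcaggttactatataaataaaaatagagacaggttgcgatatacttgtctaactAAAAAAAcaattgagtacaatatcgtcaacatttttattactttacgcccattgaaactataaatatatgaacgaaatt
tef3 downstream, peak: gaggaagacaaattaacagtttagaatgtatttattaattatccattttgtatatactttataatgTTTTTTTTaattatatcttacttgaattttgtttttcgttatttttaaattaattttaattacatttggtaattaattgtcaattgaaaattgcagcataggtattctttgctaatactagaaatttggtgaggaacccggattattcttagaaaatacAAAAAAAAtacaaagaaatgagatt
set11 neighbourhood, peak: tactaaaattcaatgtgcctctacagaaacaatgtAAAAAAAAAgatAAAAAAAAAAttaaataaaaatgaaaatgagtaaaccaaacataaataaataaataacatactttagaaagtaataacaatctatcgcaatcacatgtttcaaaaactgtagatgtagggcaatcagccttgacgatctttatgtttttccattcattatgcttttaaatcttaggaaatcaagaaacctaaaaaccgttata
bir1, low window: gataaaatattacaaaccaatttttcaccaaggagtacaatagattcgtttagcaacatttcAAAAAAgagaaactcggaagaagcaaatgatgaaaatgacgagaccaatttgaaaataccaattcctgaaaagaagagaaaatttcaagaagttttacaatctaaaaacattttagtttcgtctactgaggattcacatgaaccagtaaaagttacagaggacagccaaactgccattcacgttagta

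These stretches were 84.4%, 71.8%, 78.4% and 74.8% A+T at the peaks, and 67.6% in bir1. The peak stretches were taken only from gene-free DNA and the low one only from coding sequence, so that this contrast also sets gene-free against coding DNA. Arm windows with under 25% of their length in protein-coding genes averaged 67.0% A+T, and those with over 75% averaged 62.4%. The lowest left arm window, between skb15 and sts5, had 66.2% and was passed over by that rule. Each peak stretch held 2 runs of AAAAAA or TTTTTT or longer, the longest of 23 bases beside SPCC1235.17, and the bir1 stretch held 1. Such runs are common here: of 7204 stretches of 250 bases tiled over the analysed windows of the arms, 49.4% held one (an A run on one strand is a T run on the other, so both were searched). The share was 52.3% of 2428 stretches in enriched windows, 49.5% of 200 in depleted windows and 47.8% of 4576 in the windows between. By arm, it was 52.2% in enriched and 39.3% in depleted stretches on the left (56 depleted stretches), and 52.4% in enriched and 53.5% in depleted stretches on the right (144 depleted stretches).

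The highest window of the right arm also held a pair of tRNA genes at higher coordinates than the stretch shown, sup9 (a serine tRNA, chrIII:1689713-1689809, plus strand) and imt07 (an initiator methionine tRNA, chrIII:1689817-1689888, plus strand). The second held a histidine tRNA gene (chrIII:1844639-1844710, plus strand). They are printed because 10 of the 73 peak regions of the arms held a tRNA gene, as described further on.
sup9: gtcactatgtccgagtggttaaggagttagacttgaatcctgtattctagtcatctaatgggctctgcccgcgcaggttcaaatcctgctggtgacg
imt07: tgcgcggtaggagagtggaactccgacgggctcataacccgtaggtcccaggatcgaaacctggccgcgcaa
SPCTRNAHIS.04: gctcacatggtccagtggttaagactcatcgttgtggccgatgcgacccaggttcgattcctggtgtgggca

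Values are log2(IP/input) relative to the median nuclear probe of each array, so that a value of 0 does not mean that RPA was missing. Probes were averaged in 1 kb windows of at least 2 probes, which gave 1801 windows on the arms (792 left, 1009 right; median 4 probes) of 12039 in the genome. Background-subtracted IP signals of the arm probes had medians of 785.6, 52.3 and 1527 on rad3∆ arrays 1 to 3, against 619.2, 312 and 1098 on WT arrays 1 to 3. The dim rad3∆ array 2 had 87.8% of arm probes well above background in the IP, and the other arrays 97.7% to 99.8%. The strain labels were checked at rad3 (chromosome II, 904184 to 913629, 32 probes), where input signal stood at -5.46, -3.70 and -3.81 log2 units in rad3∆ and at -0.37, -0.24 and -0.32 in WT.

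The left arm had mean values of 0.17, 0.26 and 0.28 on rad3∆ arrays 1 to 3 and of 0.29, 0.25 and 0.39 on WT arrays 1 to 3. The right arm had 0.15, 0.26 and 0.29 in rad3∆ and 0.29, 0.27 and 0.42 in WT. All 6 arrays thus read above their own median on both arms, and the strains overlapped. The left arm averaged 0.24 ± 0.06 in rad3∆ and 0.31 ± 0.07 in WT, and the right arm 0.24 ± 0.07 in rad3∆ and 0.33 ± 0.08 in WT (SD, n = 3 each). Left minus right came to -0.0055 ± 0.016 over the 6 arrays (SD), positive in 3 of 6 (exact two-sided sign-flip test, p = 0.469), so that any difference between the arms was smaller than the spread between arrays.

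The arms stood above the interior of chromosomes I and II, meaning the parts at least 200 kb from an end and 100 kb from the middle of a centromere. Arms minus interior was 0.23, 0.36 and 0.46 on rad3∆ arrays 1 to 3 and 0.41, 0.34 and 0.52 on WT arrays 1 to 3, with a mean of 0.39 ± 0.10 (SD, n = 6). It was positive in 6 of 6 arrays (exact two-sided sign-flip test, p = 0.03125, the smallest that 6 arrays can give), and leaving out any 1 array, which lifts that smallest p to 0.0625, left the mean between 0.36 and 0.42. That test takes the arrays as independent, although same-numbered arrays of the strains share a slide. With the mean of each slide as the unit, arms minus interior was positive on 3 of 3 slides, where the smallest p is 0.25 (exact sign-flip test, p = 0.25). Input DNA moved the same way: its mean on the arms was 0.084 log2 units above the array median in rad3∆ and 0.097 in WT, against -0.053 in rad3∆ and -0.040 in WT in the interiors. The ratio is the IP over that input, and the part of copy number in the result was not tested.

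Windows called enriched had an adjusted p under 0.05 with limma and a fitted value of at least 0.5 (1.41-fold), and depleted windows one of at most -0.5. On the arms, 554 of 1801 windows were enriched in rad3∆ (30.8%, against 18.8% of all windows) and 667 in WT (37.0%, against 18.4%). The left arm had 243 enriched windows in rad3∆ and 289 in WT (30.7% and 36.5%), and the right arm 311 in rad3∆ and 378 in WT (30.8% and 37.5%). Depletion was scarce: 73 arm windows were depleted in rad3∆ (4.05%, against 21.3% of all windows) and 43 in WT (2.39%, against 20.8%). In the interiors of chromosomes I and II, the enriched share was 14.9% in rad3∆ and 14.4% in WT and the depleted share 26.6% in rad3∆ and 25.1% in WT. Of the enriched arm windows, 515 were shared, which is 93.0% of those of rad3∆ and 77.2% of those of WT.

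The arms were also flatter than the interiors. The SD over windows ran from 0.33 to 0.50 on the rad3∆ arrays and from 0.34 to 0.53 on the WT arrays for either arm. On the interior of chromosome I it ran from 0.51 to 0.72 in rad3∆ and from 0.47 to 0.65 in WT, and on that of chromosome II from 0.49 to 0.67 in rad3∆ and from 0.46 to 0.63 in WT. The profile of one strain followed that of the other: the strain means correlated across windows at r = 0.95 on the left arm (792 windows) and 0.93 on the right arm (1009 windows). Single arrays correlated at 0.65 to 0.81 within rad3∆, at 0.65 to 0.79 within WT and at 0.60 to 0.93 between strains over both arms; neighbouring windows share fragments, and same-numbered arrays share a slide.

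Peaks were defined on the mean of the strains as stretches of 2 or more enriched windows in a row, bridging a single window that was not enriched. The left arm held 29 such regions that covered 281 kb (34.3% of the arm) and the right arm 44 that covered 359 kb (34.8%). Regions were 2 to 18 kb long on the left with a median of 10 kb, and 2 to 19 kb on the right with a median of 6 kb. There were 35.4 regions per Mb on the left arm and 42.7 per Mb on the right arm, and the distance between neighbouring peak tops had a median of 28 kb on the left (5 to 68 kb) and 15 kb on the right (5 to 74 kb). Whether the arms differ in these values was not tested, and the single arrays described next do not all follow them. The arms held 73 of the 315 regions of the genome (640 of 2307 kb) and 1801 of its 12039 windows. The highest windows of the 73 had a median of 0.92 (strain mean), against 0.90 for the 242 regions elsewhere.

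The number of runs at or above 0.5 on single arrays depended on the array. On the left arm there were 31, 29 and 31 runs on rad3∆ arrays 1 to 3, with median lengths of 3, 9 and 10 kb, and 45, 28 and 28 runs on WT arrays 1 to 3, with median lengths of 4, 9 and 12 kb. On the right arm there were 34, 37 and 39 runs in rad3∆ and 59, 41 and 36 in WT. Median lengths on the right arm were 4, 7 and 12 kb in rad3∆ and 4, 5 and 11.5 kb in WT, so that arrays 1 of both strains had the shortest runs and arrays 3 the longest on both arms. The median run of the left arm was the longer one on rad3∆ array 2 and on WT arrays 2 and 3, that of the right arm on rad3∆ arrays 1 and 3, and on WT array 1 they were equal.

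The 5 highest regions of the left arm lay at genes of several kinds. The first, from 204001 to 219000, spanned ght6, SPCC1235.17, SPCC1235.18, ght5 (ght genes encode hexose transporters) and dga1 (diacylglycerol acyltransferase). Its highest window, over the gene-free stretch shown and part of SPCC1235.17, read 0.66, 1.57 and 1.73 on rad3∆ arrays 1 to 3 and 0.49, 1.35 and 1.73 on WT arrays 1 to 3. Array 1 of both strains was low there and the strains overlapped.

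The second region (853001 to 866000) peaked where prp28, a U5 snRNP helicase gene, meets pup3, a proteasome subunit gene, at 0.91, 0.88 and 1.21 in rad3∆ and 0.90, 1.20 and 1.49 in WT. The third (765001 to 778000) peaked between gnr1, which encodes a G protein beta subunit, and tyw1, of wybutosine synthesis, over the second left arm stretch shown, at 0.81, 0.71 and 1.32 in rad3∆ and 0.67, 0.91 and 1.56 in WT. The fourth (936001 to 945000) peaked at SPCC24B10.20, annotated as a dehydrogenase, and reached over tpi1, the triose-phosphate isomerase gene, with 0.67, 1.01 and 1.33 in rad3∆ and 0.71, 0.94 and 1.43 in WT. In all of these, array 3 was highest in either strain and the strains overlapped. The fifth (574001 to 587000) peaked at utp21, a ribosome biogenesis gene, with 0.66, 1.04 and 1.17 in rad3∆ and 0.83, 0.92 and 1.49 in WT.

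On the right arm, the highest region ran from 1684001 to 1700000 over tef3, which encodes translation elongation factor 3, SPCC417.09C, dal51 and 2 further genes. Its top window lay past the 3′ end of tef3 over the tRNA pair sup9 and imt07, at 1.19, 1.39 and 1.47 in rad3∆ and 1.20, 1.65 and 1.79 in WT, every array above 1. The second (1844001 to 1861000) spanned set11 (a methyltransferase of ribosomal protein L12 in yeasts), rpl3702 (a ribosomal protein gene) and tea1 (a cell end marker gene), and its top window over the histidine tRNA gene read 0.95, 1.46 and 1.32 in rad3∆ and 0.86, 1.42 and 1.82 in WT.

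The third (1821001 to 1840000, 19 kb) spanned nup60 (a nucleoporin gene), msh6 (mismatch repair) and nmt1 (thiamine synthesis) and read 0.98, 1.25 and 1.03 in rad3∆ and 1.09, 1.22 and 1.54 in WT at its top. The fourth (1719001 to 1724000) lay at SPCC191.10 between gst1, a glutathione S-transferase gene, and inv1, the invertase gene, with 0.84, 1.06 and 1.09 in rad3∆ and 1.08, 1.18 and 1.59 in WT. The fifth (2066001 to 2079000) peaked between wtf21 and amt1 (an ammonium transporter gene) and was the least reproducible, at 0.50, 2.10 and 1.19 in rad3∆ and 0.52, 0.46 and 1.6 in WT. In the fit to all 6 arrays, all 10 windows were called enriched in both strains. Fitted values ran from 1.03 to 1.44 in rad3∆ and from 0.94 to 1.59 in WT. The windows were picked as the highest on the strain mean, so that these calls add no evidence. The WT call of the window between wtf21 and amt1 rested on WT array 3, without which its fitted value was 0.44 (limma, adjusted p = 0.36).

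Depleted stretches, runs of at least 2 depleted windows on the strain mean, were few: 4 on the left arm (15 kb in all) and 5 on the right arm (37 kb) of 223 in the genome. The lowest of the left arm, 678001 to 683000, held sts5, and its lowest window, between skb15 and sts5, read -0.92, -1.09 and -0.89 in rad3∆ and -0.27, -0.59 and -1.14 in WT, with the rad3∆ arrays close together and the WT arrays spread. Without WT array 3 its WT value was -0.37 and no longer called (limma, adjusted p = 0.20). The next were at bir1, the survivin gene (546001 to 552000), and at spc7, an outer kinetochore gene (789001 to 791000). The window in bir1 read -0.48, -0.24 and -1.16 in rad3∆ and -0.41, -0.55 and -0.97 in WT, and that in spc7 read -0.53, -0.46 and -0.79 in rad3∆ and -0.67, -0.49 and -0.63 in WT. Without rad3∆ array 3 the rad3∆ value in spc7 was -0.52 and no longer called (limma, adjusted p = 0.069).

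The right arm's longest low stretch, 15 kb from 1222001 to 1237000, lay against the centromere flank and held rec11 (meiotic cohesin), cig1 (a G1/S cyclin), nse3 (Smc5-Smc6 complex) and myo2 (a myosin). Its lowest window, at cig1, read -0.94, 0.35 and -1.52 in rad3∆ and -0.59, -0.61 and -1.51 in WT, so that the dim rad3∆ array 2 disagreed in sign with the other arrays. Without rad3∆ array 3 the rad3∆ value of that window was -0.75 and no longer called (limma, adjusted p = 0.083). The next were at adg3, a beta-glucosidase gene (1951001 to 1955000; -0.86, -0.56 and -1.42 in rad3∆, -0.67, -0.64 and -1.09 in WT), and at wtf14, a member of the wtf family of spore killer genes (1630001 to 1638000; -0.72, -0.70 and -1.31 in rad3∆, -0.41, -0.57 and -1.04 in WT). The mean input signal was 0.22 above the array median in rad3∆ and 0.23 in WT over 50 depleted arm windows, against 0.070 in rad3∆ and 0.079 in WT over 607 enriched ones. The gap was wider on the left arm, where the input stood at 0.47 in rad3∆ and 0.49 in WT over 14 depleted windows and at 0.060 in rad3∆ and 0.069 in WT over 262 enriched ones. On the right arm it stood at 0.12 in rad3∆ and 0.13 in WT over 36 depleted windows and at 0.077 in rad3∆ and 0.087 in WT over 345 enriched ones. Over depleted windows of the interiors of chromosomes I and II it was -0.053 in rad3∆ and -0.030 in WT. Over enriched ones there it was -0.040 in rad3∆ and -0.054 in WT. Both leave out chromosome I from 3700001 on. The part of input in these low ratios was not tested.

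Levels varied along each arm in segments of 100 kb, some of them cut shorter by the limits of the arms. The highest were 200001 to 300000 on the left arm (0.42 ± 0.13 in rad3∆, 0.52 ± 0.11 in WT; SD, n = 3 each) and 1500001 to 1600000 on the right arm (0.42 ± 0.12 in rad3∆, 0.51 ± 0.17 in WT). The lowest adjoined the excluded centromere flanks on both sides and were cut short, with 19 windows on the left and 80 on the right. From 1000001 to 1019855 the values were -0.063, -0.018 and -0.13 in rad3∆ and 0.12, 0.13 and 0.10 in WT, and the strains did not overlap. From 1219857 to 1300000 they were -0.063, 0.024 and -0.059 in rad3∆ and 0.064, 0.067 and 0.096 in WT, again without overlap. Across the genome, 18.3% of 126 segments had every rad3∆ array below every WT array.

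A+T content did not set the arms apart, at 63.5% of bases in arm windows and 63.8% in windows of the other interiors. Within the arms, the 227 windows over 68% A+T were enriched in 44.1% of cases in rad3∆ and 53.3% in WT, while the other A+T classes lay between 27.8% and 30.3% in rad3∆ and between 31.3% and 39.4% in WT. The other interiors showed a like step, with 33.1% in rad3∆ and 26.2% in WT over 68% A+T. Their other classes lay between 9.57% and 13.3% in rad3∆ and between 9.64% and 12.9% in WT. Across arm windows the correlation of A+T content with the mean level was weak (r = 0.11 in rad3∆ and 0.12 in WT, 1801 windows, whose neighbours overlap in fragments). Windows with under 25% of their length in protein-coding genes (217) had a median of 0.38 in rad3∆ and 0.47 in WT, and those with over 75% (1236) had 0.23 in rad3∆ and 0.32 in WT. In the other interiors the same classes had medians of 0.28 in rad3∆ and 0.14 in WT (under 25%) and -0.17 in rad3∆ and -0.17 in WT (over 75%), so that gene-rich windows of the arms read above the array median where those of the interiors read below it.

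Of 1390 genes on the arms with at least 2 probes, 427 were enriched in rad3∆ (30.7%, against 18.2% of all 8198 genes measured in the genome) and 509 in WT (36.6%, against 17.7%). Depleted arm genes numbered 47 in rad3∆ (3.38%, against 20.6% of all genes) and 32 in WT (2.3%, against 21.1%). Of the 685 protein-coding genes among them, of 716 annotated on the arms, 202 were enriched in rad3∆ (29.5%, against 16.2% of the 4145 protein-coding genes measured in the genome) and 248 in WT (36.2%, against 16.4%). Those depleted numbered 20 in rad3∆ (2.92%, against 21.4%) and 13 in WT (1.9%, against 21.2%). The shares of 29.5% in rad3∆ and 36.2% in WT are the ones to set beside the enriched counts of the gene lists that follow, none of which was tested against the arms. The median protein-coding gene of the arms had a fitted value of 0.22 in rad3∆ and 0.31 in WT, against -0.029 in rad3∆ and -0.023 in WT over all 4145 measured protein-coding genes.

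Of 6 genes of the replication machinery on the arms, 5 were measured, of which 2 were enriched in rad3∆ and 3 in WT, and 0 were depleted. Their median was 0.48 in rad3∆ and 0.55 in WT. The gene spb70, for the B subunit of DNA polymerase alpha, read 0.22, 0.78 and 0.85 in rad3∆ and 0.49, 0.83 and 1.09 in WT, and mcm3, for a subunit of the replicative helicase, 0.38, 0.88 and 0.72 in rad3∆ and 0.55, 0.70 and 1.06 in WT. The gene ssb2, which encodes the middle subunit of RPA itself, averaged 0.48 ± 0.07 in rad3∆ and 0.54 ± 0.12 in WT (SD, n = 3 each), and only its WT value was called, which without WT array 1 fell below the threshold at 0.48. The polymerase epsilon subunit gene dpb3 was the lowest, at -0.27 ± 0.39 in rad3∆ and -0.15 ± 0.25 in WT, and mcm4 read 0.14 ± 0.10 in rad3∆ and 0.19 ± 0.27 in WT.

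Among 4 checkpoint genes, wee1, the kinase gene that opposes Cdc25, was enriched in both strains (0.58 ± 0.30 in rad3∆, 0.63 ± 0.18 in WT), although without rad3∆ array 2 its rad3∆ value of 0.49 lay below the threshold. The others were not called: cds1, the kinase gene downstream of Rad3 in HU, at -0.15 ± 0.12 in rad3∆ and -0.07 ± 0.08 in WT, tel1 at 0.03 ± 0.05 in rad3∆ and 0.15 ± 0.02 in WT, and srk1 at -0.22 ± 0.14 in rad3∆ and -0.13 ± 0.11 in WT. Of 11 repair and recombination genes, 3 were enriched and 1 was depleted in each strain. The enriched ones were smc6 (0.67 ± 0.17 in rad3∆, 0.69 ± 0.23 in WT), msh6 (0.69 ± 0.26 in rad3∆, 0.69 ± 0.33 in WT) and pku70, for a Ku subunit of end joining (0.52 ± 0.14 in rad3∆, 0.76 ± 0.12 in WT). The depleted one was nse3, in the low stretch by the centromere, at -0.70 ± 0.60 in rad3∆ and -0.66 ± 0.30 in WT; smc6 and nse3 encode parts of the same complex. The rad3∆ call of nse3 rested on rad3∆ array 3, without which its fitted value was -0.34 (limma, adjusted p = 0.24).

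The list of ribonucleotide supply and S-phase transcription had 2 measured genes on the arms. The cyclin gene cig1 was depleted in both strains (-0.92 ± 0.56 in rad3∆, -0.62 ± 0.65 in WT). Without WT array 3 its WT value was -0.65 and no longer called (limma, adjusted p = 0.083). The gene ctp1, which the repair list also holds, read 0.18 ± 0.04 in rad3∆ and 0.24 ± 0.25 in WT. Of 3 measured genes of the histone list, 1 was enriched in rad3∆ (hta1) and 2 in WT (hta1 and htb1), with 0 depleted. In the divergent histone pair of the right arm, hta1 read 0.63, 0.82 and 0.75 in rad3∆ and 0.78, 0.91 and 1.31 in WT. Its partner htb1 read 0.27, 0.65 and 0.47 in rad3∆ and 0.72, 0.75 and 0.90 in WT. For htb1 the strains did not overlap, but the difference of -0.33 was not called (limma, adjusted p = 0.60). The histone chaperone gene asf1 stood at -0.38 ± 0.22 in rad3∆ and -0.28 ± 0.23 in WT.

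Of 22 cytosolic ribosomal protein genes on the arms, 16 had enough probes, 7 were enriched in each strain and 0 were depleted. Averaged over both strains, the highest was rpp0 (0.84 ± 0.19 in rad3∆, 0.90 ± 0.32 in WT) and the lowest rps1201 (-0.08 ± 0.22 in rad3∆, 0.01 ± 0.25 in WT), whose sign depended on the processing. The median was 0.22 in rad3∆ and 0.26 in WT, close to the 0.22 in rad3∆ and 0.31 in WT of all protein-coding genes of the arms. The wtf genes, a family of meiotic drivers that lies nearly whole on chromosome III, had 23 of 25 members on the arms, of which 10 had enough probes. They diverged: 2 were enriched in rad3∆ and 5 in WT, counts that include the annotated pseudogenes wtf12 (both strains) and wtf22 (WT only). The highest was wtf12 (0.60 ± 0.14 in rad3∆, 0.80 ± 0.27 in WT). The neighbours wtf14 (-0.71 ± 0.19 in rad3∆, -0.53 ± 0.18 in WT) and wtf15 (-0.72 ± 0.15 in rad3∆, -0.78 ± 0.27 in WT) were depleted in both. The wtf genes resemble each other in sequence, so that probes may hybridise across members.

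Windows that overlap one of the 22 tRNA genes of the arms were high. Over 24 such windows the mean was 0.56, 0.50 and 0.68 in rad3∆ and 0.65, 0.62 and 0.77 in WT. In each strain 14 of the 24 were called enriched and 0 depleted. That enriched share was 58.3%, against 30.8% of all arm windows in rad3∆ and 37.0% in WT. The median of the 24 tRNA windows was 0.57 in rad3∆ and 0.64 in WT, against 0.26 in rad3∆ and 0.35 in WT over all arm windows, and they were 67.0% A+T against 63.5%. The lowest held a serine tRNA gene (SPCTRNASER.12) and had a fitted value of -0.49 in rad3∆ and -0.34 in WT. Of the 73 shared regions of the arms, which covered 34.6% of their length, 10 held a tRNA gene, and whether that is many was not tested. On the interiors of chromosomes I and II, 77 tRNA windows had a like median of 0.57 in rad3∆ and 0.54 in WT against an interior median of -0.11 in rad3∆ and -0.13 in WT. The 59 arm windows over LTRs of retrotransposons had a median of 0.34 in rad3∆ and 0.42 in WT, with 33.9% enriched in rad3∆ and 40.7% in WT, and 103 interior LTR windows had -0.081 in rad3∆ and -0.13 in WT.

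The comparison of the strains asks whether loss of Rad3 moved RPA on the arms. The rad3∆ arm means were below those of WT within the spread between arrays, with differences of -0.073 on the left (exact two-sided permutation test, p = 0.40) and -0.092 on the right (p = 0.20; the smallest p that 3 arrays against 3 allow is 0.10). By slide, rad3∆ minus WT was -0.12, 0.011 and -0.11 on the left arm and -0.14, -0.0075 and -0.13 on the right arm, so that slide 2, with the dim rad3∆ array, showed almost none of it. Left minus right differed between the strains by 0.020 (exact permutation test, p = 0.20).

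The difference had the same sign along most of both arms. The rad3∆ mean was the lower one in 19 of 20 segments of 100 kb or less. In 5 of the 20 every rad3∆ array lay below every WT array, which 18.3% of the 126 segments of the genome did. For a lower rad3∆ mean, the share of the 126 segments is not given here. All segments were read on the same arrays, so that the 19 are not independent of each other. In the 19 the difference ran from -0.19, in the short segment from 1000001 to 1019855, to -0.04. The exception was the outermost stretch of the right arm, 2200001 to 2250000, with 0.16, 0.30 and 0.26 in rad3∆ and 0.10, 0.18 and 0.19 in WT; there the rad3∆ arrays overlapped WT but were higher on all 3 slides. All arrays are centred on their own median, so that a value on the arms is relative to the rest of the genome, and a uniform change of RPA cannot be seen.

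Window by window, 0 of 1801 arm windows differed between the strains with limma at an adjusted p under 0.05 (0.108% of windows did in the genome). At an unadjusted p under 0.05, 4 arm windows were higher in rad3∆ (0.222% of them, against 5.1% of all windows of the genome) and 38 were lower (2.11%, against 3% of all windows). Of the arm windows, 75.5% had a lower fitted value in rad3∆, against 54.8% of all windows and 53.2% of those in the interiors of chromosomes I and II. Among the most positive fitted differences were those at pep3 and rbd2 in the outermost right segment (0.52 ± 0.18, fitted value ± SE, adjusted p = 0.45) and in the window between wtf21 and amt1 named above (0.40 ± 0.35, adjusted p = 0.85), which without rad3∆ array 2 stood at -0.17. The pep3 and rbd2 window read -0.03, 0.45 and -0.02 in rad3∆ and -0.58, -0.36 and -0.22 in WT, without overlap. It was picked for its difference, so that the lack of overlap adds no evidence.

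The most negative were at SPCC306.11 (-0.89 ± 0.29, adjusted p = 0.37), grc3 (-0.80 ± 0.29, adjusted p = 0.46) and ole1, the fatty acid desaturase gene (-0.78 ± 0.24, adjusted p = 0.35), all by limma and each on 2 probes. The window at ole1 read 0.69, -0.18 and 0.27 in rad3∆ and 1.48, 0.77 and 0.87 in WT, and every WT array lay above every rad3∆ array. The window at SPCC306.11 read -0.18, -0.41 and -0.04 in rad3∆ and 1.5, 0.21 and 0.35 in WT, likewise without overlap. Both windows were picked for their differences, so that the lack of overlap adds no evidence.

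Averaged over whole peaks, 0 of the 73 shared regions of the arms differed with limma (6.67% of the 315 regions of the genome did). Of the 73, 64 had a lower fitted value in rad3∆, as had 167 of the 315 regions of the genome and 103 of the 242 outside the arms. At an unadjusted p under 0.05, 1 region was higher (1.37% of the 73, against 16.5% of the 315) and 4 were lower (5.48%, against 1.9%). The numbers of the arrays pair them by slide, and with the slide as a block in place of the dye term 4 arm regions were lower in rad3∆ with limma (3% of 300 regions in the genome were lower) and 0 were higher. These were 245001 to 252000 at SPCC794.03 and SPCC794.04C (-0.22 ± 0.08, fitted value ± SE, adjusted p = 0.033), 473001 to 476000 at nap1, a nucleosome assembly gene, and vps3 (-0.22 ± 0.08, adjusted p = 0.046), 1392001 to 1405000 at rsc7, ole1, gst4 and wtf11 (-0.23 ± 0.08, adjusted p = 0.029), and 1410001 to 1414000 at hta1, htb1 and sec5 (-0.27 ± 0.08, adjusted p = 0.0076). Without rad3∆ array 2, in the fit with the dye term, 7 arm regions were lower (3.43% in the genome), and without both arrays of slide 2, chosen after seeing the data, 14 were lower (7.16% in the genome).

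The peak at SPCC794.03 read 0.43, 0.41 and 0.43 in rad3∆ and 0.58, 0.66 and 0.70 in WT, without overlap of the strains in a region picked for its difference. The histone region read 0.47, 0.68 and 0.64 in rad3∆ and 0.68, 0.85 and 1.06 in WT, where rad3∆ array 2 lay just above WT array 1. The one region higher in rad3∆ at an unadjusted p under 0.05 lay at rad21, the cohesin gene, with 0.49, 0.39 and 1.0 in rad3∆ and 0.18, 0.43 and 0.57 in WT and a fitted difference of 0.23 (limma, adjusted p = 0.25). The next most positive were 0.16 at 2107001 to 2109000 and 0.14 at 2220001 to 2222000, by wtf25 and mrpl33. The region at gad8, a protein kinase gene (911001 to 913000), was among the 3 most negative, with 0.15, 0.41 and 0.54 in rad3∆ and 0.47, 0.64 and 0.69 in WT and a fitted difference of -0.23 (limma, adjusted p = 0.23).

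Gene by gene, 0 of the 1390 arm genes differed between the strains with limma, as 0% of the 8198 genes measured did. At an unadjusted p under 0.05, 1 arm gene was higher in rad3∆ (0.0719% of them, against 5.71% of all genes) and 38 were lower (2.73%, against 2.45%). Among protein-coding genes, the largest positive differences were at mrpl33 (0.36 ± 0.18), mog1 (0.33 ± 0.15) and bmt5 (0.29 ± 0.14; fitted value ± SE), all 3 in the outermost right segment. The largest negative ones were at rib2 (-0.50 ± 0.13), SPCC622.07 beside the histone pair (-0.45 ± 0.14) and SPCC663.09C (-0.44 ± 0.15). The gene rib2, picked for its difference, read -0.10, -0.24 and -0.49 in rad3∆ and 0.18, 0.25 and 0.26 in WT, without overlap. Over all genes, the extremes were non-coding RNA genes on 2 probes each, SPNCRNA.7274, which overlaps cig1, at 0.49 and SPNCRNA.7451 at -0.72; without rad3∆ array 2 the value of SPNCRNA.7274 was -0.08.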

How the data were processed

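Per the labels, 6 two-colour Agilent arrays held Ssb1 IP against input, 3 per strain, with the IP in green in replicates 1 and 2 and in red in replicate 3. The authors deposited scanner output of Agilent Feature Extraction (10.7.1.1 or 10.7.3.1, per the file headers); its processed signals are intensity values, background-subtracted and dye-normalized with a linear factor within the array, per the file headers. The deposited log10 ratio matched those signals within 0.01 log2 units for at least 99.7% of probes. The positions are those of an older NCBI build per the file headers. Their fit to ASM294v3 was judged indirectly, from the shift at which probe length best followed local A+T content. On chromosome III that shift was at most 4 bp in all 25 segments of 100 kb (r = 0.54 to 0.71). In the genome 107 of 126 segments passed, and chromosome I failed from 3700001 on. Values by A+T content, gene coverage and gene, and input by window class, leave out that part of chromosome I. Levels, window calls and regions keep it.

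From these, log2(IP/input) was centred on each array's median nuclear probe, flagged probes (37 of the members) were left out, and 1 kb windows, shared regions and genes of at least 2 probes were averaged. limma 3.58.1 in R 4.3.3 fitted all 6 arrays with strain means and a dye orientation term (3 residual degrees of freedom), with Benjamini-Hochberg adjustment over the whole table. Single values per array were tested with exact sign-flip or permutation tests. Per the file headers, arrays of equal number shared a slide, and their deviations from the strain means correlated at 0.34, 0.31 and 0.51, so the numbers pair the arrays. The scripts were tested on simulated data.

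The named regions are the 5 highest per arm and the 3 lowest depleted stretches per arm with the genes at their windows, any called strain difference or else the 3 largest each way, and list members. The members and the lists were chosen with earlier results of these data known, and the regions called with the slide as a block were named after their values were seen. Alternatives were normexp with an offset of 50 on the median signals (the files give spot medians, and means for the background only), loess, probes well above background, mode centring, scaled arrays, no dye term, the slide as a block, other window sizes and thresholds, medians or single probes for the arm means, and leaving out each array. Probe sequences and the array's own genome build were not used here, and 1 window that the naming rule picks is not reported here.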

Additional observations from a re-analysis of the deposited data

How the results depend on the processing

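Arms minus interior stayed positive under every alternative run. It was 0.36 to 0.42 without 1 array (exact sign-flip p = 0.0625, the smallest that 5 arrays allow) and 0.41 without slide 2, which holds the dim IP and was left out after the data were seen (exact sign-flip p = 0.125, the smallest that 4 arrays allow). With slide means as the unit, also added after the data were seen, it was 0.39 (exact sign-flip p = 0.25, the smallest that 3 slides allow). The depleted share of arm windows also moved: in rad3∆ it was 7.05% with mode centring, 9.77% at a threshold of 0.3, 0.278% at a threshold of 1 and 2.44% to 4.05% without 1 array, and in WT it was 4.72%, 6.55% and 0.0555% under the first 3 of these. Depleted genes numbered 91 in rad3∆ and 56 in WT with mode centring, 122 and 83 at a threshold of 0.3, and 2 and 1 at a threshold of 1. The enriched share at a threshold of 1 was 1.83% in rad3∆ and 3.44% in WT, with 22 and 41 enriched genes; a stricter threshold admits fewer features by construction.

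Regions lower in rad3∆ numbered 4 with the replicate block and 0 to 7 without 1 array, the 7 without rad3∆ replicate 2. Without slide 2 there were 14 lower and 1 higher (at rad21), and 4 windows were lower and 1 was higher. The replicate block changed no other count of calls by over 1.5 times, and the arm differences had an exact sign-flip p = 0.50 (left) and 0.25 (right) with it, where 0.25 is the smallest that 3 slides allow.

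Signs turned for single values. The difference in the window between wtf21 and amt1 became -0.12 with normexp and -0.21 without slide 2, and without 1 array it ran from -0.17 (without rad3∆ replicate 2) to 0.81. That of SPNCRNA.7274 became -0.026 with normexp and -0.24 without slide 2, and without 1 array it ran from -0.085 (without rad3∆ replicate 2) to 0.93. The rps1201 value in rad3∆ became 0.11 with normexp and 0.051 without slide 2, and without 1 array it ran from -0.15 to 0.051 (without rad3∆ replicate 2). In WT it became -0.089 with mode centring, and without 1 array it ran from -0.094 (without WT replicate 1) to 0.14. The tel1 value in rad3∆ became -0.082 with mode centring. The causes were not tested. The dim IP of rad3∆ array 2 limits the precision of its values.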
